A study of Mus musculus with 16 samples.

Results

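C-type lectin receptors of myeloid cells are surface proteins with which macrophages, monocytes and dendritic cells bind sugars and other ligands on microbes and on damaged or dying host cells. The 9 genes described here were chosen by name, *Clec7a*, *Clec4d*, *Clec4e*, *Clec4n*, *Clec4a1*, *Clec4a3*, *Clec10a*, *Clec12a* and *Mgl2*, out of 19353 gene symbols measured. They were chosen with earlier results of these data known. RNA was sequenced from gonadal white adipose tissue (gWAT) of 16 male mice on a C57Bl6/J background, 1 library per mouse and 4 mice per group. Control mice carried the *Mboat7* flox/flox allele alone (labelled Flox), and *Mboat7* ASKO mice carried it with a Cre recombinase under the adiponectin promoter, so that deletion was aimed at adipocytes and not at the myeloid cells that make these receptors. Each genotype was fed either chow or a high fat diet (HFD) for 20 weeks, which gave 4 groups, control chow, ASKO chow, control HFD and ASKO HFD, and the mice are given below in the order of the numbers 0 to 3 in their labels. Because all groups carry the floxed allele, no mouse without it served as a comparison.

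The receptors differ in what they do with a bound ligand. *Clec7a* encodes Dectin-1, which binds beta-glucan and signals through its own tail to the kinase SYK. *Clec4n* (Dectin-2), *Clec4d* (MCL) and *Clec4e* (Mincle) use the adaptor FcRγ, encoded by *Fcer1g*, to reach the same kinase. *Clec12a* encodes an inhibitory receptor that senses uric acid crystals and recruits phosphatases, and *Clec4a1* and *Clec4a3* belong to the dendritic cell immunoreceptor family. *Clec10a* and *Mgl2* encode the paired galactose-type lectins of the mouse (CD301a and CD301b), which are used to mark resident macrophages and some dendritic cells in tissues, fat included. In fat, macrophages gather around dying adipocytes during obesity.

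Values are FPKM, fragment numbers scaled to the length of the transcript and to the fragments mapped in the mouse, so that levels of different genes may be set side by side. The FPKM sum of a mouse ran from 606370 to 982004, the 10 highest genes took 32.6% to 55.2% of it, and 7553 to 8761 genes were listed at 0. From the steps of low values, the deposited scale corresponded to about 251000 to 426000 fragments per mouse, so that a single fragment on 1 kb of transcript was worth 2.35 to 3.99 FPKM and a value listed at 0 does not show absence. Control HFD mouse 1 and ASKO HFD mouse 3 stood apart, each with over 54% of the sum in 10 genes, and results are given without both where that changes a call. The adipocyte gene *Adipoq* ran from 318 to 1870 FPKM over all mice. The targeted gene, *Mboat7*, was low in this tissue, at 2.42, 4.33, 0.902 and 4.99 FPKM in control chow, 0, 1.39, 0 and 2.89 in ASKO chow, 0, 0, 2.15 and 1.61 in control HFD and 1.14, 0, 2.60 and 0 in ASKO HFD. *Mboat7* overlapped between genotypes on both diets (log2 difference -1.12, SE 0.62, limma adjusted p = 0.983 on chow and -0.02, SE 0.62, adjusted p = 1 on HFD), so it does not check the genotype labels.

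The 9 genes lie on 2 chromosomes of the mm10 genome. On chromosome 6, *Clec4a1* (122921847 to 122934619) and *Clec4a3* (122952514 to 122969875) lie 17.9 kb apart, *Clec4n* (123229842 to 123247021), 260 kb farther on, *Clec4d* (123262116 to 123275265) and *Clec4e* (123281788 to 123289870) follow with gaps of 15.1 and 6.52 kb, and 6060 kb beyond these *Clec12a* (129349963 to 129365303) and *Clec7a* (129461590 to 129472777) lie 96.3 kb apart. On chromosome 11, *Mgl2* (70130328 to 70137550) lies 29.1 kb from *Clec10a* (70166622 to 70170834). No exon of the 9 genes overlapped that of another gene. The pair on chromosome 11 is similar in sequence, and 16.5% of the 50-base stretches of *Mgl2* transcripts and 10.6% of those of *Clec10a* also occur in another gene, mostly in each other, so part of their fragments could have been counted for either one. For the other members the share was at most 0.93%. GENCODE M21 annotates *Clec7a* as a polymorphic pseudogene.

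Sequences upstream of a RefSeq start are shown for the 3 genes called with diet, because *Clec7a* and *Clec12a* were called higher on HFD in both genotypes while *Mgl2* was called lower in ASKO mice. Each is the 250 bases before a RefSeq start on GRCm38.p6, 5′ to 3′ on the gene's strand, and capitals mark the core of PU.1, a transcription factor of myeloid cells (GAGGAA or TTCCTC), and C/EBP half-site pairs (TTGCNNAA or TTNNGCAA), searched on both strands with overlaps allowed.
Clec7a, chr6:129472780-129473029, minus strand: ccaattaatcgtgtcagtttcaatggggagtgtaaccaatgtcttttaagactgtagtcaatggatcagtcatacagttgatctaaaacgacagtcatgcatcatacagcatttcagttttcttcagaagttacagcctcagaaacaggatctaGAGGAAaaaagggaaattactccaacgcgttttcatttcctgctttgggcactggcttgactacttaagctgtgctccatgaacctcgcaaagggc
Clec12a, chr6:129349994-129350243, plus strand: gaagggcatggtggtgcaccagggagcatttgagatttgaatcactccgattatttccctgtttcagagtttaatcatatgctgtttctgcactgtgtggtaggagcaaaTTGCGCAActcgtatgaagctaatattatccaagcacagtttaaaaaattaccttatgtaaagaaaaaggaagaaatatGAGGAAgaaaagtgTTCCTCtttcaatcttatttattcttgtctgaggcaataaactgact
Mgl2, chr11:70130107-70130356, plus strand: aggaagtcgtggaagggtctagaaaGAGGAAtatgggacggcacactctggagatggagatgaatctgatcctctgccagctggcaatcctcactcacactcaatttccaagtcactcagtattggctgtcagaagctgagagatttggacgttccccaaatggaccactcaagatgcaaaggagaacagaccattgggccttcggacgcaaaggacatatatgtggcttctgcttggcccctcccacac

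The *Clec12a* window lies inside the measured locus, which begins at 129349963, and that of *Mgl2* runs past the start of its locus at 70130328. For these genes the RefSeq start used differs from the start of the locus. The *Clec12a* window held 2 PU.1 cores, beginning 61 and 47 bases before the RefSeq start, and 1 C/EBP match. The *Clec7a* window held 1 PU.1 core 96 bases before the start, and that of *Mgl2* held 1 much farther out, at 225 bases. RefSeq windows were found for 7 members, 9 windows in all, of which 8 held a PU.1 core and 2 a C/EBP match. Windows of *Clec7a* overlap each other, as do those of *Clec4a3*. The *Clec7a* core, at 96 and 90 bases before the starts, is the same site and is counted in each window. Over 32851 windows of the same length, 23.3% held a PU.1 core and 9.56% a C/EBP match. A match is a description of letters and was not tested for binding.

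The activating receptors were led by *Clec7a*, which was near the floor of detection on chow and the most abundant member in most mice on HFD. *Clec7a* measured 2.95, 1.24, 0 and 1.01 FPKM in control chow, 1.99, 6.57, 3.51 and 2.13 in ASKO chow, 15.8, 19.5, 24.7 and 17.2 in control HFD, and 32.7, 32.0, 62.2 and 46.1 in ASKO HFD. The highest chow mouse was below the lowest HFD mouse in both genotypes. In approximate fragments these values were 0 to 4.6 on chow and 11.2 to 51.5 on HFD. *Clec7a* rose with HFD by 3.29 on the log2(FPKM + 1) scale in control mice (SE 0.45, limma adjusted p = 0.000474) and by 3.33 in ASKO mice (SE 0.45, adjusted p = 0.000337), and the ratio of mean FPKM in ASKO mice was 12.2. A gene is called changed here where its adjusted p is under 0.05 and its log2 fold change is beyond 0.5 in either direction.

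*Clec4d*, whose product MCL pairs with Mincle, was listed at 0 in 6 of 8 chow mice. Its values were 0, 2.11, 0 and 0 FPKM in control chow, 0, 0, 2.80 and 0 in ASKO chow, 8.42, 4.16, 5.33 and 0 in control HFD, and 5.96, 1.64, 11.4 and 18.1 in ASKO HFD. Each HFD group overlapped its chow group, at control HFD mouse 3 and ASKO HFD mouse 1. The fitted difference with diet was 1.66 in control mice (95% interval 0.05 to 3.27, adjusted p = 0.333) and 2.54 in ASKO mice (0.93 to 4.15, adjusted p = 0.0834), neither called, although the second was called without ASKO HFD mouse 1 (3.08, adjusted p = 0.0473). *Clec4n* was above 0 in 4 mice, 1 per group, at 2.93, 6.25, 4.17 and 5.07 FPKM, about 1.0 to 2.3 fragments each, and its fitted diet differences were 0.10 and -0.06. *Clec4e* was above 0 in control HFD mouse 1 alone, at 4.98 FPKM or about 3.7 fragments, and was the 1 member that did not pass the filter of at least 1 FPKM in at least 4 mice. The 95% intervals of *Clec4n* ran from -1.57 to 1.77 in control mice and from -1.73 to 1.61 in ASKO mice. Differences within these intervals were not resolved at this depth, and *Clec4e* was not tested with limma.

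**Figure D1:**
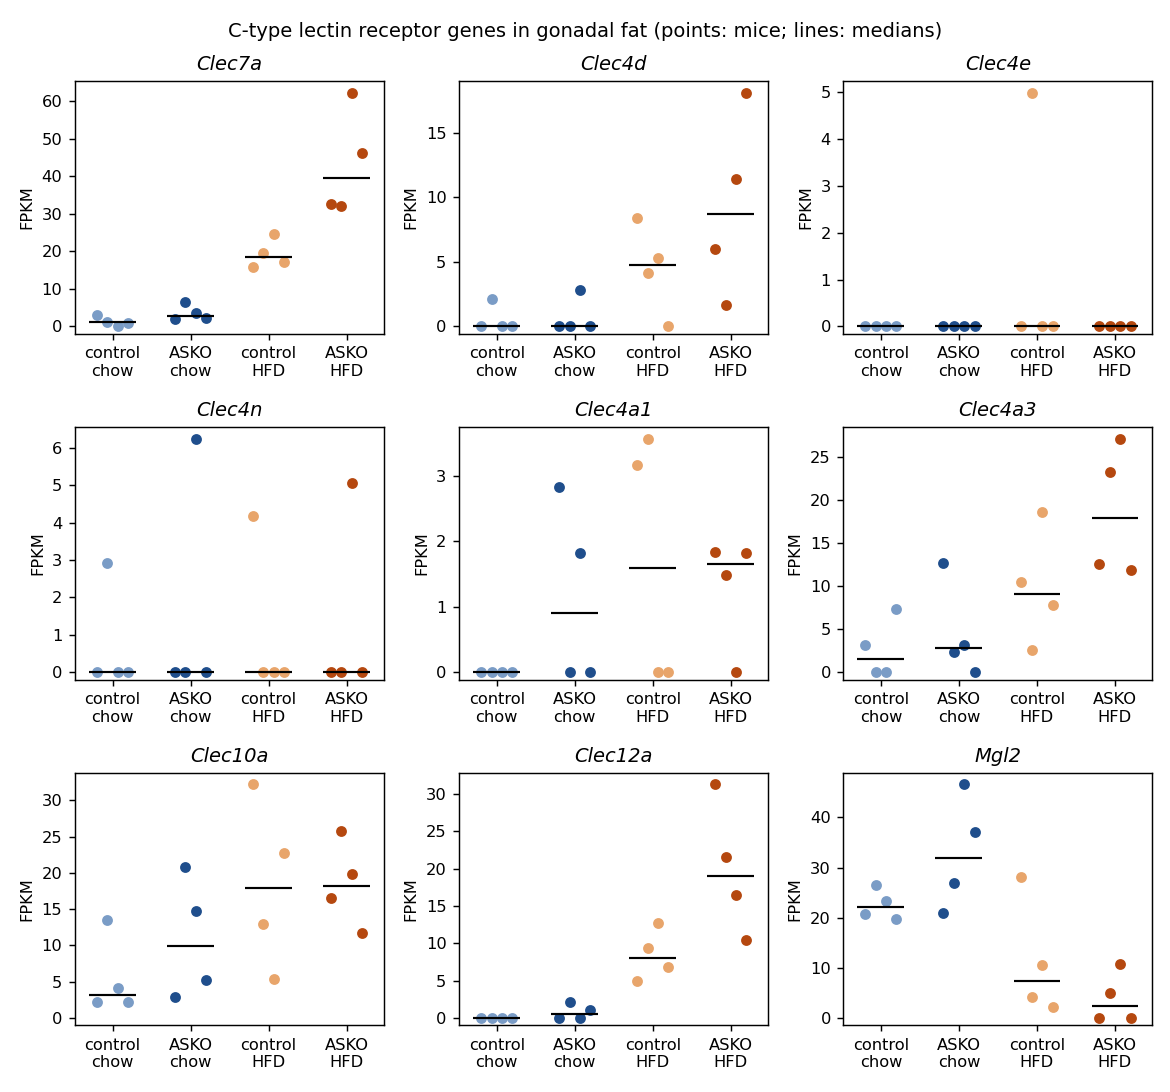
FPKM of the 9 receptor genes in gWAT, 1 panel per gene with its own linear axis, points for the 4 mice of each group and lines for group medians. *Clec7a* and *Clec12a* sit higher in every HFD mouse than in any chow mouse, *Mgl2* sits at 19.8 FPKM or more in every chow mouse, and *Clec4n* and *Clec4e* are listed at 0 in most mice.

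*Clec12a*, the inhibitory receptor, was also higher on HFD. It was listed at 0 in all 4 control chow mice and measured 0, 2.17, 0 and 1.11 FPKM in ASKO chow, 4.96, 9.34, 12.7 and 6.81 in control HFD, and 31.3, 21.6, 16.5 and 10.5 in ASKO HFD. No chow mouse reached the lowest HFD mouse. On the log2(FPKM + 1) scale *Clec12a* rose by 3.17 in control mice (SE 0.49, limma adjusted p = 0.00124) and by 3.61 in ASKO mice (SE 0.49, adjusted p = 0.000365). The size of these differences depends on the pseudocount because chow mice were listed at 0, and with a pseudocount of 0.1 in place of 1 they were 6.33 and 5.51.

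The genes of the dendritic cell immunoreceptor family were spread widely within groups and 0 were called. *Clec4a3* measured 3.17, 0, 0 and 7.32 FPKM in control chow, 12.7, 2.40, 3.21 and 0 in ASKO chow, 10.5, 2.60, 18.6 and 7.75 in control HFD, and 12.6, 23.2, 27.1 and 11.9 in ASKO HFD. It was above 0 in 5 of 8 chow mice and 8 of 8 HFD mice, but the groups overlapped, with ASKO chow mouse 0 above 2 ASKO HFD mice. The fitted diet differences of *Clec4a3*, 1.92 (95% interval 0.22 to 3.62, adjusted p = 0.273) and 2.31 (0.61 to 4.01, adjusted p = 0.15), were not called. *Clec4a1* was above 0 in 7 mice, at most at 3.57 FPKM, and was listed at 0 in all 4 control chow mice.

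Of the galactose-type pair, *Mgl2* was called lower on HFD in ASKO mice and *Clec10a* was not called. *Mgl2* measured 20.8, 26.5, 23.3 and 19.8 FPKM in control chow, 21.0, 27.0, 46.6 and 37.0 in ASKO chow, 28.2, 4.11, 10.5 and 2.12 in control HFD, and 0, 4.97, 10.8 and 0 in ASKO HFD. In ASKO mice every HFD value was below every chow value, whereas in control mice HFD mouse 0 exceeded all chow mice and the other three lay below them. *Mgl2* fell by 3.49 on the log2 scale with HFD in ASKO mice (SE 0.76, limma adjusted p = 0.0147), and the difference of -1.45 in control mice was not called (SE 0.76, adjusted p = 0.413; -2.04 and adjusted p = 0.202 without control HFD mouse 0). The ASKO call was lost without ASKO HFD mouse 0 (-2.98, adjusted p = 0.0595), without ASKO HFD mouse 3 (-2.98, adjusted p = 0.0512), and without both mice that stood apart (-2.98, adjusted p = 0.0584), the first 2 of these being the mice listed at 0.

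*Clec10a* was above 0 in all 16 mice. It measured 2.23, 13.5, 4.15 and 2.27 FPKM in control chow, 2.88, 20.8, 14.7 and 5.18 in ASKO chow, 32.3, 13.0, 5.43 and 22.7 in control HFD, and 16.5, 25.7, 19.8 and 11.7 in ASKO HFD. The groups overlapped in each comparison. The mean was 5.54 ± 5.39 (SD, n = 4) in control chow and 18.4 ± 11.7 in control HFD, a ratio of 3.31 that was not called (log2 difference 1.62, SE 0.63, limma adjusted p = 0.227), and the ratio in ASKO mice was 1.69 (log2 difference 0.98, adjusted p = 0.517).

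Thus 2 of the 8 members tested were called higher on HFD in control mice, where 1.81% of 13147 genes tested were called higher and 1.1% lower. In ASKO mice 2 members were called higher and 1 lower, where 2.13% of genes were called higher and 1.3% lower. Groups without overlap, HFD higher, were found for 4.45% of all genes in control mice and 5.18% in ASKO mice, which *Clec7a* and *Clec12a* met in both, and 4.42% of genes in ASKO mice lay lower on HFD without overlap, as *Mgl2* did. The median difference over the 8 members was 1.64 in control and 1.65 in ASKO mice, beside 0.00 and 0.03 over all genes. The 2 diet comparisons use separate mice. Because the members were chosen with earlier results of these data known, their shares and medians beside those of all genes are descriptions and no test.

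**Figure D2:**
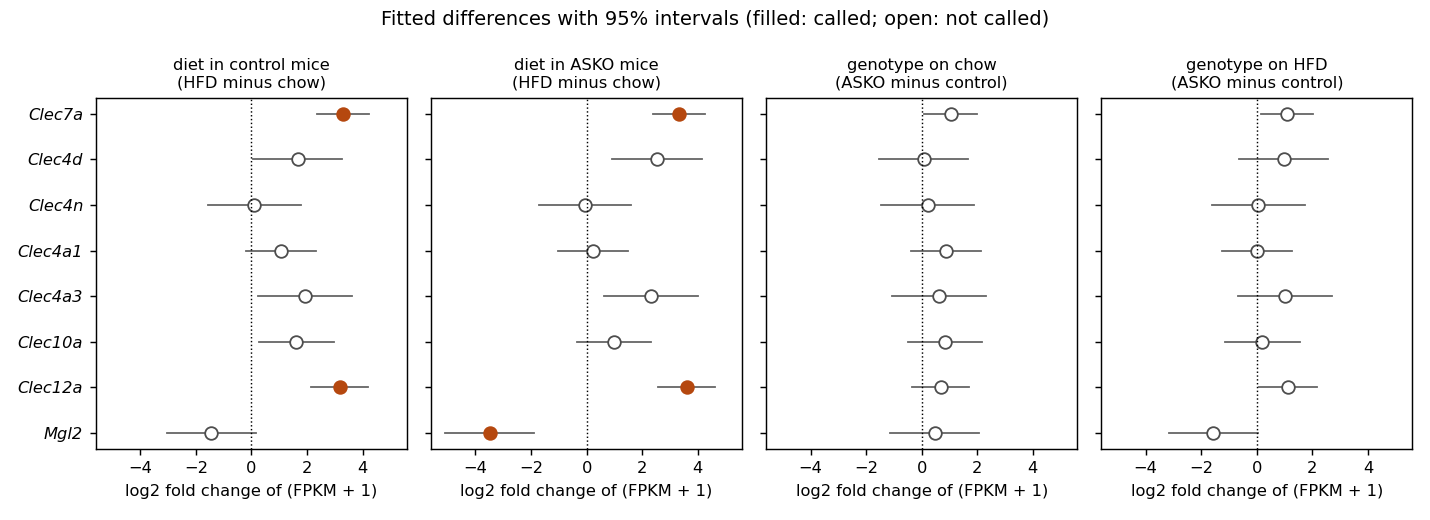
Fitted log2 fold changes of FPKM + 1 (points) with 95% intervals (lines) for the 8 members tested, in 4 comparisons of 4 mice against 4, filled where called. *Clec7a* and *Clec12a* are called higher on HFD in both genotypes, *Mgl2* is called lower on HFD in ASKO mice alone, and no member is called between genotypes.

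The make-up of the receptor signal differed between diets. In chow mice *Mgl2* was the highest of the 9 genes in 8 of 8 mice and held 45.9% to 84.9% of their summed FPKM. In HFD mice it was the highest in 0 of 8 and held 0 to 26.2%, while *Clec7a* was the highest in 6 and *Clec10a* in 2. The summed FPKM ran from 27.4 to 46.3 in control chow, 41.4 to 78.9 in ASKO chow, 56.6 to 108 in control HFD and 100 to 153 in ASKO HFD. *Mgl2* exceeded *Clec10a* in 8 of 8 chow mice and 1 of 8 HFD mice, and their ratio ran from 1.96 to 9.33 in control chow, 1.3 to 7.31 in ASKO chow, 0.093 to 1.94 in control HFD and 0 to 0.542 in ASKO HFD. This ratio was looked at after the values had been seen, and it is given with no test.

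Within a group, few neighbours in the order of levels were separate. In control chow *Mgl2* (median 22.0 FPKM) lay above the highest mouse of *Clec10a* (median 3.21), and the next genes, *Clec4a3* (1.59) and *Clec7a* (1.12), overlapped with *Clec10a* and with each other. In ASKO chow the medians were 32.0 for *Mgl2*, 9.95 for *Clec10a*, 2.82 for *Clec7a* and 2.81 for *Clec4a3*, and the lowest *Mgl2* value (21.0) was just above the highest *Clec10a* value (20.8). In control HFD the medians were 18.4 for *Clec7a*, 17.9 for *Clec10a*, 9.14 for *Clec4a3* and 8.07 for *Clec12a*, each overlapping with the next. In ASKO HFD *Clec7a* (39.4) lay above all values of *Clec12a* (19.1), whose highest mouse, at 31.3, was close to the lowest *Clec7a* mouse at 32.0, and *Clec12a* overlapped with *Clec10a* (18.2) and *Clec4a3* (17.9).

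**Figure D3:**
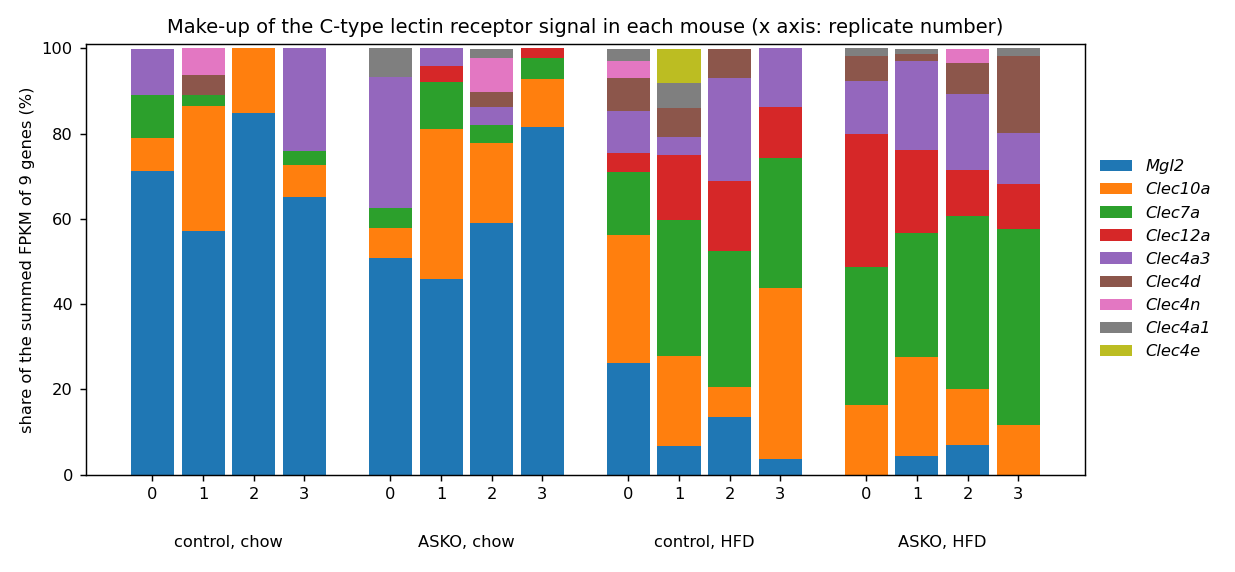
Share of the summed FPKM of the 9 receptor genes held by each gene (percent, stacked bars) in each of the 16 mice, numbered 0 to 3 within a group. *Mgl2* fills 45.9% to 84.9% of each chow bar and at most 26.2% of each HFD bar, where *Clec7a* and *Clec12a* fill more.

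Most markers of macrophages were higher on HFD, as these receptors were. Of 12 macrophage markers, 7 were called higher on HFD in control mice and 7 in ASKO mice, and none was called lower. The lysosomal protease gene *Ctss* led them, with a median of 30.4 FPKM in control chow and 288 in control HFD (log2 difference 3.62, SE 0.51, limma adjusted p = 0.000617), and *Adgre1*, a surface protein used to identify mouse macrophages, had a median of 3.36 and 27.8 FPKM (2.95, SE 0.64, adjusted p = 0.0161). *Csf1r*, the receptor for a macrophage growth factor, measured 0.41 in control and -0.43 in ASKO mice, and *Mertk*, which takes part in clearing dead cells, -0.57 and -0.68, none of them called, and both genes were named after their values were seen. The summed FPKM of the 12 markers ran from 253 to 322 in control chow, 236 to 332 in ASKO chow, 909 to 1300 in control HFD and 1130 to 1660 in ASKO HFD, and 1 marker, *Fcgr1*, was listed at 0 in every control chow mouse. In bulk tissue, fewer cells of a type and less RNA per cell cannot be told apart, and likewise more cells and more RNA per cell.

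To set the receptors beside these markers, the mean log2(FPKM + 1) of the 12 markers was subtracted in each mouse and the same test was run. The marker mean was 3.37 ± 0.16 (SD, n = 4) in control chow, 3.39 ± 0.23 in ASKO chow, 5.01 ± 0.30 in control HFD and 5.39 ± 0.15 in ASKO HFD. Relative to it, *Clec7a* was higher on HFD by 1.65 in control mice (95% interval 0.71 to 2.59, limma adjusted p = 0.00604) and by 1.34 in ASKO mice (0.40 to 2.27, adjusted p = 0.0138). *Clec12a* was higher by 1.53 (0.49 to 2.58, adjusted p = 0.0154) and by 1.61 (0.56 to 2.65, adjusted p = 0.00915). On this relative scale 0.464% of all genes were called higher in control mice and 0.449% in ASKO mice. The markers themselves were spread around their mean. Before the subtraction *Ctss* rose by 3.62 and 4.25 in control and ASKO mice and *Adgre1* by 2.95 and 3.25, beside 3.29 and 3.33 for *Clec7a*. In the same order *Csf1r* measured 0.41 and -0.43 and *Mertk* -0.57 and -0.68. A rise beyond the marker mean is thus not particular to these receptors. The relative call of *Clec7a* in ASKO mice was lost without ASKO HFD mouse 2 (1.08, adjusted p = 0.0517) and with a pseudocount of 0.1 (1.21, adjusted p = 0.203), and the other 3 kept their side of the threshold in the alternatives run.

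*Mgl2* lay above the marker mean in all chow mice, by 1.01 to 1.44 in control and 1.18 to 2.09 in ASKO mice. On HFD it lay between 3.25 below and 0.06 above it in control mice, and between 5.55 and 1.64 below it in ASKO mice. The relative difference with diet was -3.09 in control mice (95% interval -4.79 to -1.39, limma adjusted p = 0.00512) and -5.49 in ASKO mice (-7.19 to -3.79, adjusted p = 5.09e-05). On this scale 60.2% of all genes in control mice and 73.1% in ASKO mice were called lower, so a relative call in this direction is common over all genes and is not a result about *Mgl2*. In ASKO mice *Clec4n* (-2.06, adjusted p = 0.0302) and *Clec4a1* (-1.78, adjusted p = 0.0124) were also called lower, on values of at most 6.25 and 2.83 FPKM in that genotype. Both calls were lost with a pseudocount of 0.1 (adjusted p = 0.264 and 0.381) and with 3 macrophage genes as reference (adjusted p = 0.116 and 0.0876), and that of *Clec4n* also without ASKO chow mouse 2 or ASKO HFD mouse 0, 1 or 3. *Clec10a* measured -0.02 (95% interval -1.31 to 1.28) in control mice and -1.02 (-2.32 to 0.28) in ASKO mice. *Clec4d* measured 0.02 (-1.58 to 1.62) and 0.54 (-1.06 to 2.14), and *Clec4a3* 0.28 (-1.49 to 2.05) and 0.31 (-1.46 to 2.08).

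**Figure D4:**
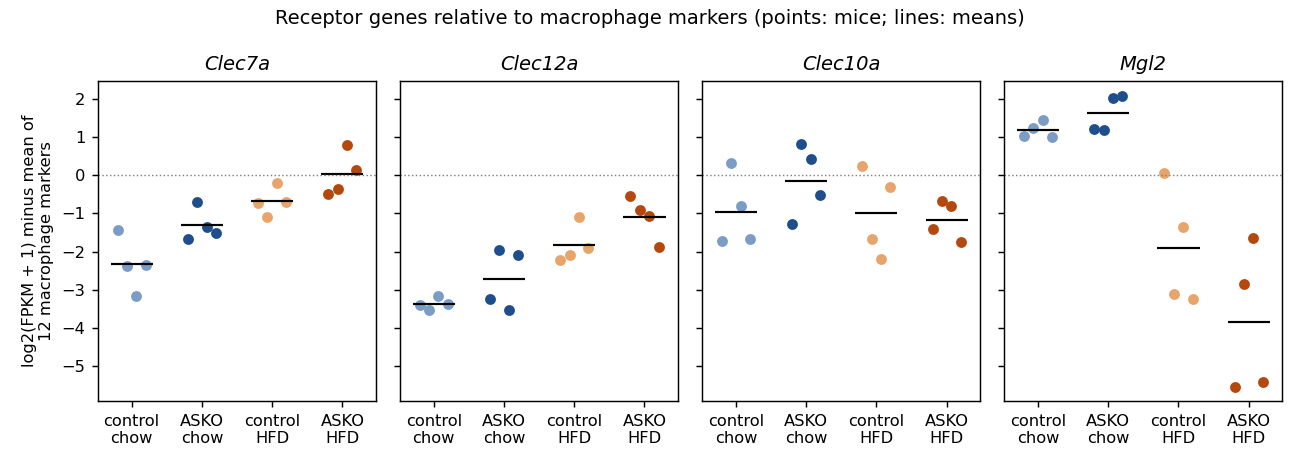
Level of 4 receptor genes relative to macrophage markers, as log2(FPKM + 1) minus the mean of 12 markers in the same mouse, with points for mice, lines for group means and a dotted line where gene and markers are equal. *Clec7a* and *Clec12a* lie nearer the markers on HFD than on chow, *Clec10a* overlaps between diets, and *Mgl2* lies above the markers in every chow mouse.

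Markers of other cell types that carry these receptors were mixed. Of 8 conventional dendritic cell markers, 7 were used here, of which 5 were tested and 0 were called with diet in either genotype. Their summed FPKM was 12.6 to 26.4 in control chow, 7.19 to 29.7 in ASKO chow, 10.2 to 12.9 in control HFD and 7.44 to 13.7 in ASKO HFD, and *Zbtb46*, a defining marker, was listed at 0 in all control HFD mice. *Xcr1*, another defining marker, had medians of 0.643, 2.11, 4.45 and 1.35 FPKM in the same order of groups (log2 difference with HFD 1.25, limma adjusted p = 0.361 in control mice and -0.01, adjusted p = 0.999 in ASKO mice). *Clec9a*, a lectin gene of conventional dendritic cells kept here with the other C-type lectin receptors, was as high as the leading members, with medians of 16, 25.8, 41.5 and 37.3 FPKM (1.44, adjusted p = 0.0904 and 0.46, adjusted p = 0.694). Of 6 monocyte markers 3 were tested and 0 were called, with sums of 6.97 to 15.2, 7.76 to 8.79, 13.0 to 22.9 and 11.7 to 28.6. Of 7 neutrophil markers, 5 were used here and 1 was tested, *Mmp9*, which was called lower on HFD in ASKO mice and was at most 3.88 FPKM, and the sums were at most 8.49 in any mouse. The part of dendritic cells, monocytes and neutrophils in the receptor values was not tested.

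Markers of further cells also moved with diet. Mast cell markers *Tpsb2* and *Mcpt4* were called higher on HFD in control mice (2 of 5 tested) and 0 in ASKO mice, with sums of 0 to 8.39, 6.16 to 18.6, 22.5 to 73.0 and 36.7 to 55.9 FPKM in control chow, ASKO chow, control HFD and ASKO HFD. Of 8 adipocyte markers, *Lep* was called higher and *Adipoq* and *Cfd* lower in both genotypes, and the mesothelial marker *Lrrn4* was called lower in control mice (1 of 5). The adipocyte sums ran from 10200 to 17600, 8840 to 25700, 4640 to 10600 and 6350 to 7180 FPKM, and the mesothelial sums from 16.3 to 31.9, 14.3 to 21.8, 0 to 10.9 and 0 to 8.56. No endothelial (0 of 5), fibroblast progenitor (0 of 5), B cell (0 of 2) or skeletal muscle (0 of 1) marker was called with diet in either genotype, and of 6 T cell markers 4 were used here and 0 passed the filter. Their part in the receptor values was not tested.

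Some adaptors and kinases downstream of the activating receptors rose with HFD as well. Of 16 proximal signalling genes tested, 1 was called higher on HFD in control mice and 5 in ASKO mice, with medians of 1.0 and 1.57 on the log2 scale, and none was called lower. *Tyrobp*, an adaptor of many myeloid receptors, rose by 3.62 in control mice (SE 0.85, limma adjusted p = 0.0259) and by 4.0 in ASKO mice (SE 0.85, adjusted p = 0.0133), from medians of 13.8 and 15.4 FPKM on chow to 134 and 182 on HFD. *Fcer1g*, the FcRγ adaptor that *Clec4n*, *Clec4d* and *Clec4e* need, was listed at 0 in all ASKO chow mice and ran from 17.6 to 55.5 FPKM in ASKO HFD (log2 difference 4.86, adjusted p = 0.00258), beside 0 to 22.3 and 6.48 to 31.8 in control chow and control HFD (2.04, adjusted p = 0.254). *Syk*, the kinase itself, rose by 2.14 in ASKO mice (adjusted p = 0.0355) and measured 1.54 in control mice (adjusted p = 0.168). The kinase gene *Btk* was also called in ASKO mice (2.23, adjusted p = 0.0156), and *Fcer1g* and *Syk* were named after their values were seen. The interaction with genotype was not called for any of the 16 genes, *Fcer1g* included (2.82, SE 1.17, adjusted p = 0.738).

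Genes further along and beside the pathway were measured in part. Of 6 downstream target genes tested, *Il1rn*, which encodes the interleukin-1 receptor antagonist, was called in both genotypes (2.69, SE 0.56, limma adjusted p = 0.013 in control and 3.23, SE 0.56, adjusted p = 0.00313 in ASKO mice), while 11 of the 19 genes on that list were used here and the other five of these did not pass the filter. *Casp1*, the inflammasome protease, measured 1.75 (adjusted p = 0.201) and 2.37 (adjusted p = 0.058). Of 5 genes for phosphatases and adaptors that inhibitory receptors use, 0 were called, *Ptpn6* measuring 2.18 (adjusted p = 0.13) and 0.95 (adjusted p = 0.596). Of 5 host ligand genes, *Anxa1* was called in ASKO mice (1.14, SE 0.26, adjusted p = 0.0188) and measured 0.82 in control mice (adjusted p = 0.116). Of 6 cooperating pattern receptors 0 were called, with medians of 0.59 and 1.11.

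Of 25 other C-type lectin receptor genes on the list, 21 were used here and 13 tested, of which 0 were called in control mice and 1, *Mrc1*, in ASKO mice. *Mrc1*, which encodes the mannose receptor CD206, had medians of 19.0 and 34.3 FPKM in control chow and control HFD (log2 difference 0.79, SE 0.31, limma adjusted p = 0.227) and of 19.3 and 49.3 in ASKO chow and ASKO HFD (1.22, SE 0.31, adjusted p = 0.0353). *Cd209f* measured -1.72 (adjusted p = 0.324) and -2.36 (adjusted p = 0.126), and *Clec4a2*, the neighbour of *Clec4a1* and *Clec4a3* in the family, 2.10 (adjusted p = 0.134) and 1.97 (adjusted p = 0.153). The median over the 13 genes was -0.09 in control and 0.14 in ASKO mice, beside 1.64 and 1.65 over the members. Both lists were chosen with earlier results of these data known, so this contrast between them was not tested.

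**Figure D5:**
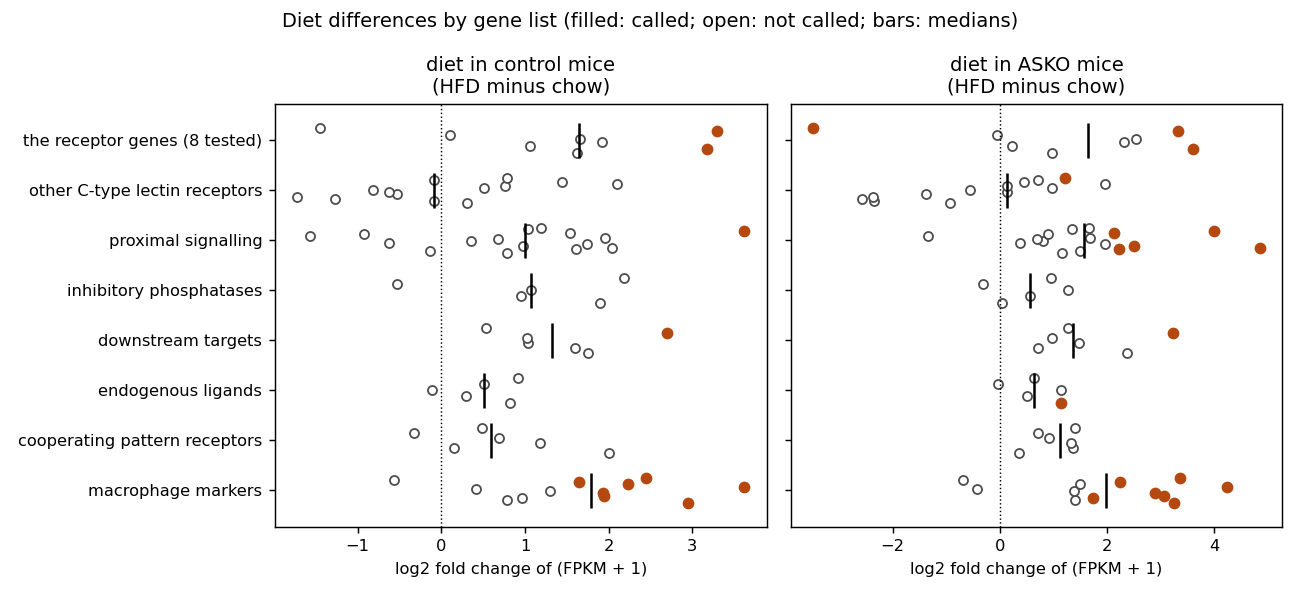
Log2 fold changes of FPKM + 1 with HFD for the tested genes of 8 lists, in control and in ASKO mice, each point a gene, filled where called, with a bar at the list median. The medians of the receptors, the proximal signalling genes and the macrophage markers are 1.64, 1.0 and 1.79 in control mice and 1.65, 1.57 and 1.99 in ASKO mice, and single calls lie in other lists (*Il1rn* in both genotypes, *Anxa1* and *Mrc1* in ASKO mice).

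Between genotypes on HFD, *Clec7a* was higher in ASKO mice without overlap, but no member was called. The mean of *Clec7a* was 43.2 ± 14.2 FPKM in ASKO HFD and 19.3 ± 3.88 in control HFD (SD, n = 4), a ratio of 2.24, and the lowest ASKO mouse (32.0) was above the highest control mouse (24.7). The two-sided exact permutation test of this difference gave p = 0.0286, the smallest that 4 mice against 4 allow, and the limma fit gave 1.09 (95% interval 0.15 to 2.03, adjusted p = 0.901 over all genes). Groups without overlap, ASKO higher, were found for 1.69% of all genes, and 0.00761% of genes were called. Unadjusted limma p was under 0.05 for *Clec7a* (0.0258) and *Clec12a* (0.0346), as for 5.15% of all genes. The study, which tested with Cufflinks, named *Clec7a* among macrophage genes elevated in ASKO mice on HFD. Its test differs from the limma fit used here, under which *Clec7a* was not called. The study picked *Clec7a* out from these same mice, so its difference here is not independent evidence. *Clec12a* had means of 20.0 ± 8.82 and 8.45 ± 3.35 FPKM, a ratio of 2.36, with 1 control mouse (12.7) above the lowest ASKO mouse (10.5) (1.12, 0.09 to 2.15, adjusted p = 0.919, exact permutation p = 0.0571).

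The remaining members overlapped between genotypes on HFD. *Clec4a3* had means of 18.7 ± 7.59 and 9.86 ± 6.68 FPKM (log2 difference 1.02, 95% interval -0.68 to 2.72, exact permutation p = 0.114). *Mgl2* measured -1.56 (-3.16 to 0.03, limma adjusted p = 0.963, exact permutation p = 0.257), and *Clec10a* had the same mean of 18.4 FPKM in both groups (0.20, -1.14 to 1.54). Relative to the macrophage markers, whose list median was 0.39 higher in ASKO HFD with 0 of 12 called, *Clec7a* measured 0.71 (-0.23 to 1.64), *Clec12a* 0.73 (-0.31 to 1.78) and *Mgl2* -1.95 (-3.65 to -0.25, adjusted p = 0.481). The median fitted difference over the 8 members was 0.58, beside 0.02 over all genes and 0.31 over the 13 other C-type lectin receptor genes tested. The members were measured in the same mice and are not independent of each other.

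Between genotypes on chow no member was called, where 0.00761% of all genes were. *Clec7a* measured 1.04 (95% interval 0.10 to 1.98, limma unadjusted p = 0.0318, adjusted p = 0.983, exact permutation p = 0.0857), on values of at most 6.57 FPKM. *Mgl2* had means of 32.9 ± 11.2 FPKM in ASKO chow and 22.6 ± 3.0 in control chow (0.47, -1.13 to 2.07, exact permutation p = 0.114). The median fitted difference over the 8 members was 0.65, beside 0.00 over all genes and 0.63 over the 13 other C-type lectin receptor genes tested. Among the members, *Clec4a1* (0.86) and *Clec12a* (0.69) were listed at 0 in every control chow mouse. The members were measured in the same mice and are not independent of each other.

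The genotype-by-diet interaction was called for no member, and for 0% of all genes, while 6.29% of genes had an unadjusted limma p under 0.05. It was 0.05 for *Clec7a* (95% interval -1.28 to 1.38) and 0.43 for *Clec12a* (-1.02 to 1.89). That of *Mgl2* was -2.04 (-4.30 to 0.22, unadjusted p = 0.0744, adjusted p = 0.802). The call of *Mgl2* in ASKO mice and not in control mice is therefore not shown to be a difference between genotypes.

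The genes whose pattern was most like the mean of all 9 members over 16 mice, by Pearson r of log2(FPKM + 1), were *Cd300ld* (0.91), *Fcgr1* (0.90), *Ctsl*, *Zwilch* and *Degs2* (each 0.89). The 16 mice share a diet split, and after the group means were subtracted the most similar genes were others, *B3galnt2*, *Gm9754* and *Nxn* (each 0.85), *Gm13814* and *Paf1* (each 0.82). These r values are descriptions over mice of 4 groups and carry no test.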

How the data were processed

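The authors used TrimGalore for trimming, STAR with GENCODE (release not given in the sources used here) for alignment to mm10, and Cufflinks for the deposited FPKM values, 1 column for each mouse. Which library scaling was used and whether strand entered the counting were not given in the sources used here. Of 19373 rows, 20 sharing a symbol with another were left out, and 22 symbols turned into numbers or dates were restored from identifiers, 99.6% of which were in GENCODE M21.

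Here log2(FPKM + 1) was tested with limma 3.58.1 in R 4.3.3 over the 13147 genes that reached 1 FPKM in 4 or more mice, all 16 mice in one fit with an intensity trend, with Benjamini-Hochberg adjustment within each of 5 contrasts. Exact permutation tests were two-sided over 70 splits. The same test was run after subtracting the mean of 12 macrophage markers. Nothing says that mice of a group shared litters or cages. Cufflinks' own test needs reads and was not run. The steps used 1473 coding genes with 1 transcript of at least 1000 bases, less 200 bases. Of low values, 52.4% to 81.2% lay within 0.2 of a whole step, against 40% if spread evenly, so whole reads were not recovered. The step of each mouse and the 200 bases were picked to bring values nearest whole steps. The 40% holds for a step fixed beforehand and is too low a comparison. Approximate fragments of a member used its longest coding transcript. Scripts were tested on simulated data.

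Named genes were the members, *Mboat7*, in each list up to 4 genes of lowest adjusted p in the control diet contrast past the fold limit, those called in a genotype or interaction contrast and the highest gene, and the 5 most alike genes by each measure. Members and lists were chosen with earlier results of these data known. 1 of the signalling genes counted is not reported here by name.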

Additional observations from a re-analysis of the deposited data

Results flagged for a closer look

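In 8 of the 31 groups of 4 mice with any spread, 1 mouse lay far from the other three by Dixon's test at the 95% level, which flags about 1 in 20 groups of continuous values by chance. In 7 of the 8 the other three mice were all listed at 0, where any single detected value is flagged, so that rate does not apply and the number of flags says nothing by itself. *Clec4d* was 2.11 FPKM in control chow mouse 1 and 2.80 in ASKO chow mouse 2, with the others of each group listed at 0. *Clec4e* was 4.98 in control HFD mouse 1, and *Clec4n* was 2.93 in control chow mouse 1, 6.25 in ASKO chow mouse 2, 4.17 in control HFD mouse 0 and 5.07 in ASKO HFD mouse 2, again with the others listed at 0. *Clec10a* was 13.5 FPKM in control chow mouse 1, with the others at 2.23 to 4.15. In control chow mouse 1 and ASKO chow mouse 2 both *Clec4d* and *Clec4n*, which lie 15.1 kb apart, were the high ones. At about 0.8 to 3.7 fragments each, the 7 values set against zeros rest on few fragments.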

How the results depend on the processing

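Over 1022 alternative values of the members, 1005 kept their direction where called and their side of the threshold, 15 lost a call, 2 gained one and 0 reversed. Most of these values belong to results not called in the main fit, where either direction counts as kept. *Clec4n* between genotypes on HFD, for example, ran from -0.59 to 0.65 and was counted as kept throughout. The total therefore says little about how firm the calls are. The diet calls of *Clec7a* (log2 2.94 to 4.54 in control, 3.14 to 3.68 in ASKO mice) and *Clec12a* (2.97 to 6.33 and 3.36 to 5.51) held in all 16 alternatives of each, and that of *Mgl2* in ASKO mice in 12 of 16 (-5.20 to -2.98, limma adjusted p = 0.00395 to 0.0678, the highest with only the groups compared).

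The number of genes called between genotypes was 1 on HFD and 1 on chow. On HFD it was 2 with no filter, 0 with a filter of 5 FPKM, with quantile normalization, with only the groups compared or without both mice that stood apart (an alternative chosen after seeing the data), and 0 to 3 without each mouse. On chow it was 2 with no filter, 0 with a filter of 5 FPKM or with upper-quartile scaling, and 0 to 1 without each mouse. With diet it was 383 in control and 451 in ASKO mice, and with only the groups compared 255 and 265. Without both mice it was 231 and 311, and without each mouse 255 to 333 (the lowest without control chow mouse 1) and 265 to 378 (the lowest without ASKO HFD mouse 0). Under upper-quartile scaling the median of all genes in ASKO mice was 0.171 against 0.029, and the share called higher was 77.9% against 62.1%. The interaction had 0 calls, 1 without both mice and 0 to 1 without each mouse. Relative to macrophage markers 5 members were called in ASKO mice, 2 with a pseudocount of 0.1, 3 with 3 macrophage genes as reference and 4 to 5 without each mouse, and in control mice 3, and 3 to 4 without each mouse. The relative call of *Clec4n* in ASKO mice was also lost without both mice that stood apart, and over single mice its lost calls ran from -1.84 to -1.40 (adjusted p = 0.0738 to 0.112). Of the 5 most alike genes, 1 was shared with a pseudocount of 0.1. The cause of these shifts was not tested.

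The labels number the mice of each group 0 to 3. Over 24 pairs sharing a number, deviations from group means correlated from -0.187 to 0.152, so no pairing by number was seen. With many values at or near 0 at this depth, such correlations cannot exclude a weak pairing. With the replicate block 0 genes were called between genotypes on HFD and 0 on chow, and 361 and 390 with diet in control and ASKO mice.

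At this depth a gene under about 3 FPKM rests on 1 or 2 fragments, which limits *Clec4e*, *Clec4n* and *Clec4a1* most. FPKM give no counting interval here, 4 mice against 4 allow no exact p below 0.0286, and *Mgl2* and *Clec10a* share sequence.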
